A study of Mus musculus with 8 samples.

Results

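A set of 10 genes of the DNA replication fork was followed through the RNA sequencing of 32D cells. They encode the sliding clamp (Pcna), the subunits of the clamp loader (Rfc1, Rfc2, Rfc3, Rfc4 and Rfc5), the enzymes that trim and join Okazaki fragments (Fen1, Dna2 and Lig1) and the p60 subunit of chromatin assembly factor 1 (Chaf1b). They were chosen by name as the 10 rows of a table of 56748 genes, and all 10 passed the filter on low values described below, which left 11818 genes tested. 32D is an immortalised mouse myeloid line that needs interleukin-3 to grow. All cells had been transduced with mouse Jak2, either as Jak2WT or as Jak2V617F, the mutant kinase of myeloproliferative neoplasms. Each background was represented by GLUT1/3 WT clones and by GLUT1/3 dKO clones (genotype Slc2a1/3dKO), in which CRISPR-Cas9 had disrupted the glucose transporter genes Slc2a1 and Slc2a3. There were 4 groups of 2 clones, clones 1 and 3, with 1 library per clone. Before poly(A) RNA was sequenced, all clones had spent 24 h in RPMI-1640 holding interleukin-3 (2 ng/ml), glutamine (1 mM) and glucose (5 mM). A dKO clone was grown from a single edited cell, so the spread between the clones of a group includes what is particular to a clone, and 2 clones against 2 cannot give an exact two-sided permutation p below 0.333. The paper lists a deletion of the same size in Slc2a1 for all dKO clones of a background. Whether they came from a shared edited parent is not stated, and what such a parent carried would not be in that spread.

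Levels are given in FPKM, fragment numbers corrected for gene length and, by the authors' own total, for library size. Levels of different genes set side by side depend on the gene lengths used, such as 6303 bases for Rfc2 and 1533 for Rfc4. The change of a gene or ratio between groups does not. Differences are given as log2 of FPKM + 1, and the adjusted p-values come from limma over all 11818 genes with a threshold of 0.05. A difference on this scale understates the change of low genes. Reads on genes ranged from 16846011 to 48884329 per library, and single members had between 167 reads (Fen1 in Jak2V617F GLUT1/3 WT clone 3) and 17446 reads (Pcna in Jak2WT GLUT1/3 dKO clone 3). Slc2a1 lay between 44.7 and 64.0 FPKM in the 4 GLUT1/3 WT libraries and between 9.17 and 17.3 in the 4 dKO libraries, which matched the labels. Slc2a3 lay between 91.9 and 198 FPKM in the GLUT1/3 WT libraries and between 16.0 and 49.5 in the dKO libraries.

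PCNA is a ring of identical subunits that encircles DNA and holds the replicative polymerases and many repair factors at the fork. Replication factor C opens the ring and loads it at the junction of primer and template, which on the lagging strand happens anew for every Okazaki fragment. There FEN1 cuts the displaced flap of the preceding fragment, DNA2 shortens long flaps, and DNA ligase I seals the nick, while chromatin assembly factor 1 is recruited by PCNA to place histones on the new DNA. Most of these genes are known targets of E2F transcription factors and are transcribed mainly from late G1 into S phase.

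Since such genes are known to share E2F sites near their start, the promoters of the members were read for them. RefSeq sequence of GRCm38.p6 (250 bases before to 50 after each start) was read for 8 of the members in 11 promoters. The sequences below show 27 bases for each of these members that held the E2F core, written 5′ to 3′ on the strand of the gene with the core in capitals.
Rfc3: tttcgcgctcGCGGGAAaactctactg
Rfc4: ccgttctgtgGCGGGAAccgcggtgcc
Fen1: caggaggctgTTCGCGCctggcagatc
Lig1: agaattagtgGCGCCAAgagaagaggg
Chaf1b: cctgcggcgcGCGGGAAgctgcgggct
These windows lie at chr5:151651192-151651218 on the reverse strand for Rfc3 and at chr16:23127703-23127729 on the reverse strand for Rfc4. The window of Fen1 is chr19:10203939-10203965 on the reverse strand. Those of Lig1 and Chaf1b are chr7:13279258-13279284 and chr16:93883917-93883943, both on the forward strand. Counted from the first transcribed base, the cores shown began at position 1 in Rfc3, 12 in Rfc4, -34 in Fen1, 4 in Lig1 and 27 in Chaf1b. The stretch of Rfc3 holds a further match, TTCGCGC, left in lower case, and Lig1 and Chaf1b hold further matches outside the stretches shown.

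The core was searched on both strands as TTCCCGC and, with other inner bases, as TTGGCGC. It was also searched as TTCGCGC, and the last form was TTGCCGC. It was found in 5 of the 8 members, against 10.9% of the 27025 genes with a promoter in the same table. This form was chosen after the longer one had been seen: with a T before it (TTTCCCGC, TTTGGCGC, TTTCGCGC or TTTGCCGC), it was found in Lig1 and Rfc3 alone among the members and in 2.60% of genes. The core is part of the longer form, so matches to the latter are matches to both, and members with several promoters (Lig1 with 3 and Fen1 with 2) had more letters to match. The CCAAT box was found in Pcna and Rfc3 and in 41.1% of all genes. The E-box CACGTG was found in Fen1 and Lig1 and in 8.09% of all genes. The CHR element TTTGAA was found in Fen1 and in 20.2% of all genes. No core was found in these windows of Pcna, Rfc5 and Dna2.

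The sliding clamp gene Pcna (ENSMUSG00000027342) lies in mm39 at 132091082 to 132095234 of chromosome 2, reverse strand. It had the highest level of the 10 genes in every library. Pcna stood at 106 and 115 FPKM in the Jak2WT GLUT1/3 WT clones, at 122 and 147 in the Jak2WT dKO clones, at 83.8 and 68.8 in the Jak2V617F GLUT1/3 WT clones and at 191 and 192 in the Jak2V617F dKO clones. The Jak2V617F dKO clones were the highest and the Jak2V617F GLUT1/3 WT clones the lowest, and no group overlapped another. Within Jak2V617F the mean in dKO was 2.51 times that in GLUT1/3 WT, a log2 difference of 1.32 (SE 0.126, limma adjusted p = 0.000713). Within Jak2WT the log2 difference was 0.28, with a 95% interval from -0.01 to 0.58 and a limma adjusted p of 0.173. The study ranked Pcna for follow-up from these same libraries, so its direction here is no independent evidence. By RT-qPCR on its clones the paper then reported higher Pcna in Jak2V617F dKO.

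Reads of Pcna are shared with a near copy. Pcna-ps2, a processed pseudogene at 9260744 to 9261524 of chromosome 19 (forward strand), was listed at 101 to 276 FPKM. Of its 781 bases, 775 are identical to the coding sequence of Pcna (99.2%), with a longest identical run of 246 bases. The stretch below comes from that alignment and has 2 differences, shown in capitals. It covers chr2:132094780-132094839 on the reverse strand for Pcna and chr19:9260860-9260919 on the forward strand for the pseudogene, both in GRCm39.
Pcna: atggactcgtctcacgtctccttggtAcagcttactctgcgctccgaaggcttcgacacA
Pcna-ps2: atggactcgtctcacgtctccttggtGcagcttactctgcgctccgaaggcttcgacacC
The pseudogene took between 29.4% and 32.8% of the reads of the pair in all 8 libraries. Its own log2 difference within Jak2V617F was 1.32 (limma adjusted p = 0.000496), and with its reads added to those of Pcna the value for Pcna was again 1.32. The levels of either gene are therefore uncertain, while the sum moved as Pcna alone did, with no call changed in any of the 5 comparisons.

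**Figure D1:**
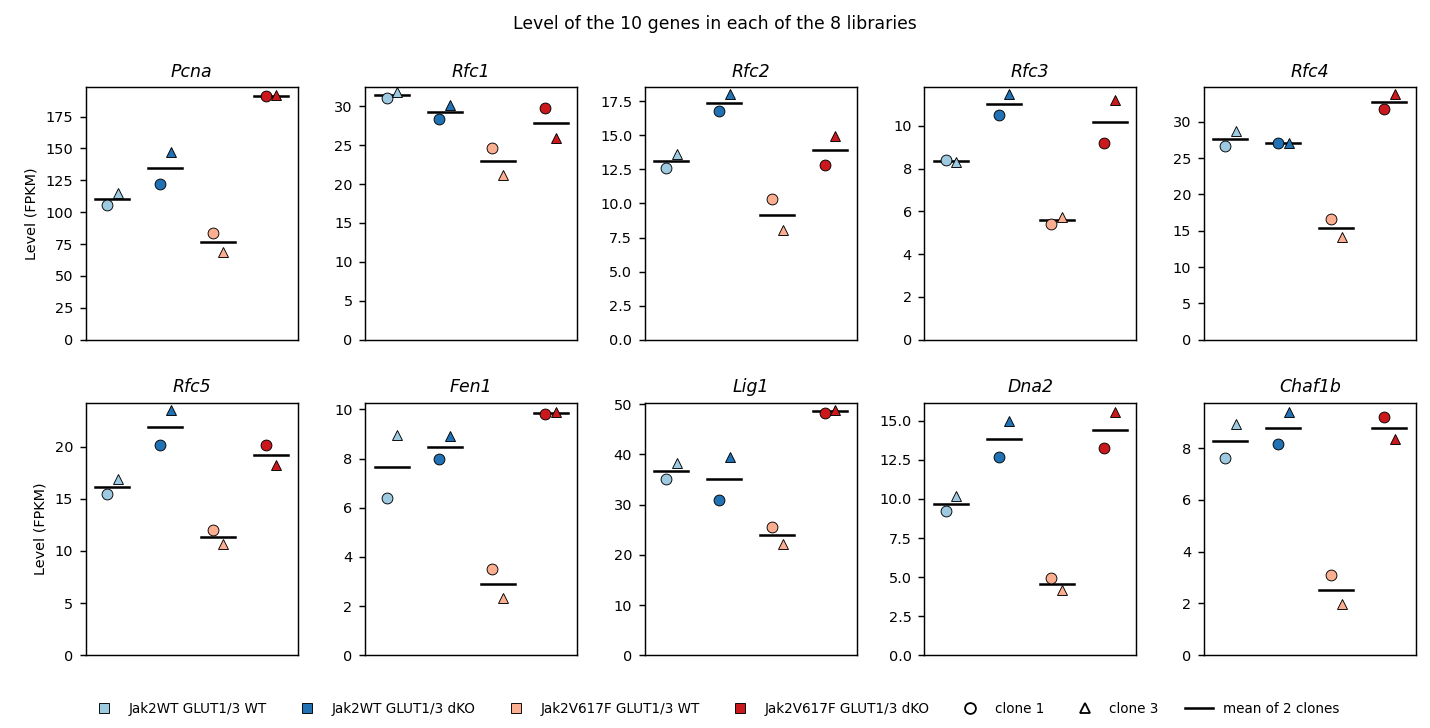
Level in FPKM (vertical axes, each from 0) of the 10 genes in the 8 libraries, with a point for each clone and a line at the mean of the 2 clones of a group. In 10 of 10 panels the Jak2V617F GLUT1/3 WT clones are the lowest, and for Pcna, Rfc4, Fen1 and Lig1 the Jak2V617F GLUT1/3 dKO clones are the highest.

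Replication factor C is built from the large subunit Rfc1, which holds the clamp during opening, and the small ATPase subunits Rfc2, Rfc3, Rfc4 and Rfc5. The 4 small subunits were higher in Jak2V617F dKO than in Jak2V617F GLUT1/3 WT, by log2 differences of 0.55 to 1.04, whereas the value for Rfc1 was 0.27 and missed the threshold.

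Rfc4 (ENSMUSG00000022881, chromosome 16 from 22932693 to 22946487, reverse strand) had the largest of these differences. It stood at 26.6 and 28.8 FPKM in the Jak2WT GLUT1/3 WT clones, at 27.1 in each Jak2WT dKO clone, at 16.6 and 14.2 in the Jak2V617F GLUT1/3 WT clones and at 31.7 and 33.8 in the Jak2V617F dKO clones. The 4 Jak2WT libraries lay between 26.6 and 28.8 FPKM, with the Jak2V617F GLUT1/3 WT clones below all of them and the Jak2V617F dKO clones above all of them. The mean in Jak2V617F dKO was 2.13 times that in Jak2V617F GLUT1/3 WT (log2 difference 1.04, SE 0.0946, limma adjusted p = 0.000598). Within Jak2WT the log2 difference was -0.03, with a 95% interval from -0.25 to 0.19. The spans of Rfc4 and Eif4a2, a translation factor gene listed at 64.2 to 118 FPKM, share 194 bases on opposite strands, and the strand setting of the counting was not given in the sources used here.

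Rfc1 (ENSMUSG00000029191, chromosome 5 from 65419193 to 65493013, reverse strand) had the smallest difference within Jak2V617F. It stood at 31.0 and 31.9 FPKM in the Jak2WT GLUT1/3 WT clones, at 28.3 and 30.2 in the Jak2WT dKO clones, at 24.6 and 21.2 in the Jak2V617F GLUT1/3 WT clones and at 29.7 and 25.9 in the Jak2V617F dKO clones. The clones of the last 2 groups did not overlap, but their difference missed the threshold (log2 difference 0.27, 95% interval 0.03 to 0.51, limma adjusted p = 0.0853). With libraries scaled to the same summed FPKM it passed, at 0.36 with a limma adjusted p of 0.0213, and with voom, at 0.38 (adjusted p = 0.0103). It was 0.17 without Jak2V617F GLUT1/3 WT clone 3 and 0.37 without clone 1 of that group.

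The remaining small subunits were the ones with the largest values in the Jak2WT dKO clones. Rfc5 (ENSMUSG00000029363, chromosome 5 from 117516168 to 117527112, reverse strand) stood at 15.4 and 16.9 FPKM in Jak2WT GLUT1/3 WT, 20.2 and 23.6 in Jak2WT dKO, 12.0 and 10.7 in Jak2V617F GLUT1/3 WT and 20.1 and 18.2 in Jak2V617F dKO. Rfc2 (ENSMUSG00000023104, chromosome 5 from 134610220 to 134630659, forward strand) stood at 12.6 and 13.6, 16.8 and 18.0, 10.3 and 8.05, and 12.8 and 14.9 FPKM in the same order of groups. Rfc3 (ENSMUSG00000033970, chromosome 5 from 151566221 to 151574707, reverse strand) stood at 8.41 and 8.32, 10.5 and 11.5, 5.43 and 5.75, and 9.22 and 11.2 FPKM. Both dKO groups lay above the GLUT1/3 WT group of their background for all 3 genes. Within Jak2V617F all 3 passed the test, with log2 differences of 0.71 for Rfc5, 0.55 for Rfc2 and 0.76 for Rfc3. Within Jak2WT only Rfc5 did, at 0.41 (limma adjusted p = 0.0459), and the values of 0.38 for Rfc2 and 0.36 for Rfc3 had limma adjusted p-values of 0.0860 and 0.0594. With only the groups compared, Rfc2 and Rfc3 were called (limma adjusted p = 0.0350 and 0.0375) and Rfc5 was not (0.0512). Rfc2 was also called with voom (adjusted p = 0.0488) and Rfc3 without either Jak2V617F dKO clone (limma adjusted p = 0.0295 and 0.0297). Rfc2 lost its call within Jak2V617F without Jak2V617F GLUT1/3 WT clone 3 (0.39, limma adjusted p = 0.0660) and without Jak2V617F dKO clone 3 (0.45, limma adjusted p = 0.0692), and also with no filter (limma adjusted p = 0.0540) and with only the groups compared (0.0752).

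Ratios between genes of the same library do not depend on how libraries are scaled, though their size depends on the gene lengths used. Rfc4 stood at 0.858 and 0.902 of the level of Rfc1 in the Jak2WT GLUT1/3 WT clones, at 0.956 and 0.896 in the Jak2WT dKO clones, at 0.675 and 0.669 in the Jak2V617F GLUT1/3 WT clones and at 1.07 and 1.30 in the Jak2V617F dKO clones. Only in the last group did Rfc4 exceed Rfc1. The ratio of Rfc5 to Rfc1 was 0.712 and 0.780 in Jak2WT dKO and 0.677 and 0.703 in Jak2V617F dKO, against 0.488 to 0.530 in the GLUT1/3 WT clones. That of Rfc2 to Rfc1 was 0.591 and 0.596 in Jak2WT dKO and 0.432 and 0.577 in Jak2V617F dKO, against 0.379 to 0.427 in the GLUT1/3 WT clones. That of Rfc3 was 0.371 and 0.381 in Jak2WT dKO and 0.310 and 0.432 in Jak2V617F dKO, against 0.221 to 0.271 in the GLUT1/3 WT clones. The level of Pcna was 3.42 and 3.60 times that of Rfc1 in Jak2WT GLUT1/3 WT, 4.32 and 4.88 times in Jak2WT dKO, 3.41 and 3.24 times in Jak2V617F GLUT1/3 WT and 6.42 and 7.40 times in Jak2V617F dKO. This ratio lay between 3.24 and 3.60 in both GLUT1/3 WT groups and above that in both dKO groups, furthest in Jak2V617F dKO. No test was run on the ratios.

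**Figure D2:**
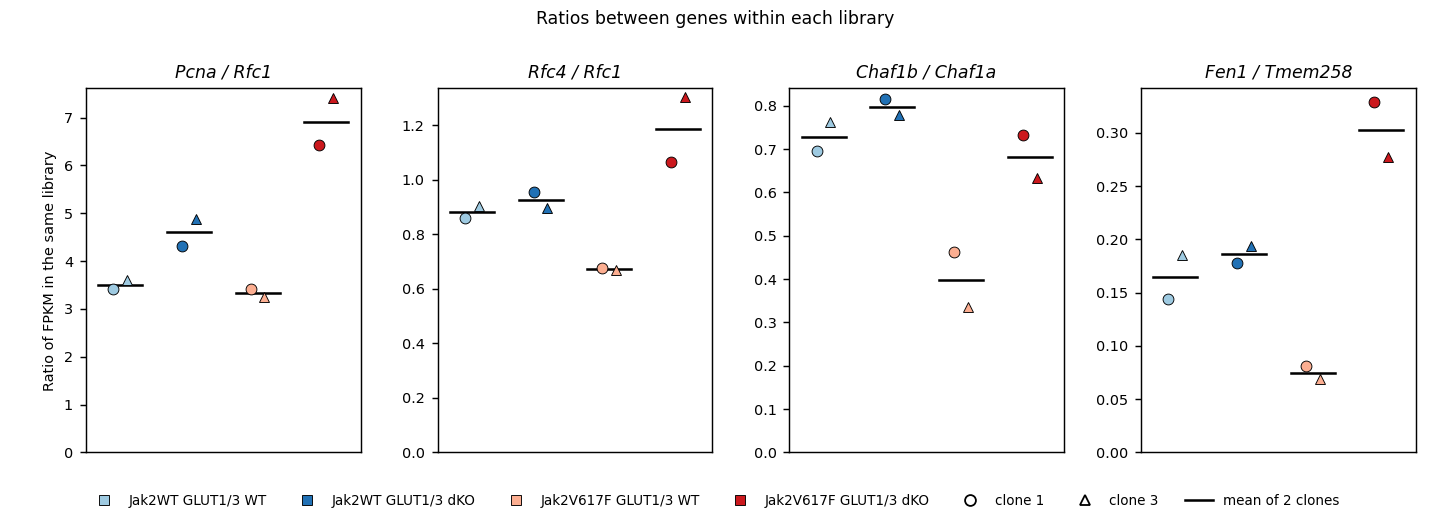
Ratio of the FPKM of 2 genes within the same library (vertical axes from 0), with a point for each clone and a line at the mean of a group. Rfc4 exceeds Rfc1 in the Jak2V617F GLUT1/3 dKO clones alone, at 1.07 and 1.30, and the ratio of Pcna to Rfc1 reaches 6.42 and 7.40 there.

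Among the enzymes of Okazaki fragment processing, all 3 were higher in Jak2V617F dKO than in Jak2V617F GLUT1/3 WT, with log2 differences of 1.49 for Fen1 and 1.47 for Dna2 and of 1.00 for Lig1. Fen1, the flap endonuclease gene (ENSMUSG00000024742, chromosome 19 from 10176496 to 10181533, reverse strand), stood at 6.40 and 8.95 FPKM in Jak2WT GLUT1/3 WT, 7.99 and 8.91 in Jak2WT dKO, 3.49 and 2.31 in Jak2V617F GLUT1/3 WT and 9.80 and 9.89 in Jak2V617F dKO. The Jak2WT groups overlapped, and both Jak2V617F groups lay outside them on opposite sides. The mean in Jak2V617F dKO was 3.39 times that in Jak2V617F GLUT1/3 WT (log2 difference 1.49, SE 0.178, limma adjusted p = 0.00150). Fen1 shares 156 bases with Tmem258 on the opposite strand, a gene listed at 29.8 to 48.2 FPKM. The level of Fen1 was 0.144 and 0.186 of that of Tmem258 in Jak2WT GLUT1/3 WT, 0.178 and 0.194 in Jak2WT dKO, 0.0809 and 0.0691 in Jak2V617F GLUT1/3 WT and 0.329 and 0.277 in Jak2V617F dKO. Tmem258 itself passed the test in none of the 5 comparisons, with limma adjusted p-values of at least 0.0557.

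Dna2, which encodes a nuclease and helicase for long flaps (ENSMUSG00000036875, chromosome 10 from 62782805 to 62809964, forward strand), was called in Jak2V617F and, close to the threshold, in Jak2WT, where the call was lost in 11 of 17 alternatives. It stood at 9.21 and 10.2 FPKM in Jak2WT GLUT1/3 WT, 12.7 and 15.0 in Jak2WT dKO, 4.95 and 4.15 in Jak2V617F GLUT1/3 WT and 13.3 and 15.6 in Jak2V617F dKO. The dKO groups of both backgrounds overlapped, while the GLUT1/3 WT groups lay apart. The log2 difference was 1.47 within Jak2V617F (SE 0.124, limma adjusted p = 0.000528, 3.17 times) and 0.47 within Jak2WT (SE 0.124, limma adjusted p = 0.0472, 1.43 times). No other gene of the table overlaps Dna2 or Rfc3, and among the genes that overlap the remaining members the highest, Wsb2 beside Rfc5, was listed at 3.06 to 6.29 FPKM.

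Lig1, the DNA ligase I gene (ENSMUSG00000056394, chromosome 7 from 13011239 to 13045350, forward strand), had the second highest level of the 10 in every group. It stood at 35.0 and 38.4 FPKM in Jak2WT GLUT1/3 WT, 30.8 and 39.5 in Jak2WT dKO, 25.5 and 22.2 in Jak2V617F GLUT1/3 WT and 48.4 and 49.0 in Jak2V617F dKO. As for Pcna, the Jak2V617F dKO clones were the highest of all and lay close to each other. The mean in them was 2.04 times that in Jak2V617F GLUT1/3 WT (log2 difference 1.00, SE 0.128, limma adjusted p = 0.00191). In Jak2WT the log2 difference was -0.07, with a 95% interval from -0.37 to 0.23.

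Chaf1b (ENSMUSG00000022945, chromosome 16 from 93680789 to 93703003, forward strand) encodes a histone chaperone subunit that works behind the fork. It stood at 7.61 and 8.91 FPKM in Jak2WT GLUT1/3 WT, 8.14 and 9.38 in Jak2WT dKO, 3.08 and 1.97 in Jak2V617F GLUT1/3 WT and 9.18 and 8.37 in Jak2V617F dKO. One group stood apart: the Jak2V617F GLUT1/3 WT clones lay below the 6 other libraries, whose values all fell between 7.61 and 9.38. The mean in Jak2V617F dKO was 3.47 times that in Jak2V617F GLUT1/3 WT (log2 difference 1.49, SE 0.159, limma adjusted p = 0.00109). The level of Chaf1b was 0.696 and 0.762 of that of Chaf1a, the large subunit of the same complex, in Jak2WT GLUT1/3 WT and 0.816 and 0.780 in Jak2WT dKO. It was 0.462 and 0.335 of it in Jak2V617F GLUT1/3 WT and 0.732 and 0.633 in Jak2V617F dKO.

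The order of the levels in FPKM, which depends on the gene lengths used, was nearly fixed. From the highest down it ran Pcna, Lig1, Rfc1, Rfc4, Rfc5 and Rfc2 in the 2 Jak2WT groups and in Jak2V617F GLUT1/3 WT, in the last of which the clones of Lig1 and Rfc1 overlapped. In Jak2V617F dKO, Rfc4 (mean 32.7 FPKM) stood above Rfc1 (27.8 FPKM), and Dna2 stood level with Rfc2, their clones overlapping. Fen1 and Chaf1b were the lowest 2 in all groups but were not apart from each other in 3 of the 4. In Jak2WT GLUT1/3 WT their clones and those of Rfc3 overlapped as well, and in Jak2V617F dKO those of Fen1 and Rfc3 did.

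Set beside all genes tested, loss of GLUT1/3 in Jak2V617F cells went with higher levels of 9 of the 10 genes, all but Rfc1, and with lower levels of none. Of all genes tested, 13.7% were called higher and 16.2% lower in this comparison, and at an unadjusted p under 0.05 limma also gave 0 lower members, as did voom. The median log2 difference of the 10 was 1.02, beside -0.02 for all genes. In 10 of 10 genes both dKO clones lay above both GLUT1/3 WT clones, which held for 29.9% of all genes. Leaving out single libraries gave 8 or 9 calls.

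In Jak2WT cells the same loss gave 2 calls of 10, Rfc5 and Dna2, both higher, beside 7.62% of all genes called higher and 6.06% lower. The median log2 difference of the 10 was 0.21, beside 0.01 for all genes. It was 0.10 without Jak2WT GLUT1/3 WT clone 1, 0.34 without Jak2WT GLUT1/3 WT clone 3, 0.11 without Jak2WT dKO clone 3 and 0.12 with the same summed FPKM. The remaining 8 values ran from -0.10 for Rfc1 to 0.38 for Rfc2. Both calls lay close to the threshold. Neither was made when either Jak2WT GLUT1/3 WT clone, either Jak2WT dKO clone or either Jak2V617F GLUT1/3 WT clone was left out, and neither with the clone number as a replicate block (limma adjusted p = 0.0699 for Rfc5 and 0.0584 for Dna2).

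Whether the loss acted on these genes to an unlike degree in the 2 backgrounds was tested by the interaction of background and dKO. It was past the threshold for 6 genes, all in the direction of a larger difference in Jak2V617F, beside 4.72% of all genes (5.91% in the opposite direction). The difference of the log2 differences was 1.41 for Chaf1b, 1.35 for Fen1, 1.07 for Rfc4 and for Lig1, 1.04 for Pcna and 1.00 for Dna2, with limma adjusted p-values from 0.00993 to 0.0223. It was not past it for Rfc1 (0.37), Rfc3 (0.40), Rfc5 (0.30) and Rfc2 (0.17), with limma adjusted p-values from 0.115 to 0.564. Rfc1 passed with libraries scaled to the same summed FPKM (0.56, limma adjusted p = 0.0316) and with voom (0.55, adjusted p = 0.0198). Without Jak2V617F dKO clone 1 the value for Rfc3 was 0.53, and without clone 3 of that group 0.28. The interval of Rfc2 ran from -0.25 to 0.59, so a difference of the size seen for the 6 lay outside it. All 6 calls were lost, with values from 0.89 to 1.57, when Jak2WT GLUT1/3 WT clone 1 or 3 or Jak2WT dKO clone 1 was left out (limma adjusted p = 0.0502 to 0.0918). Leaving out any of the other libraries gave 5 to 7 calls.

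**Figure D3:**
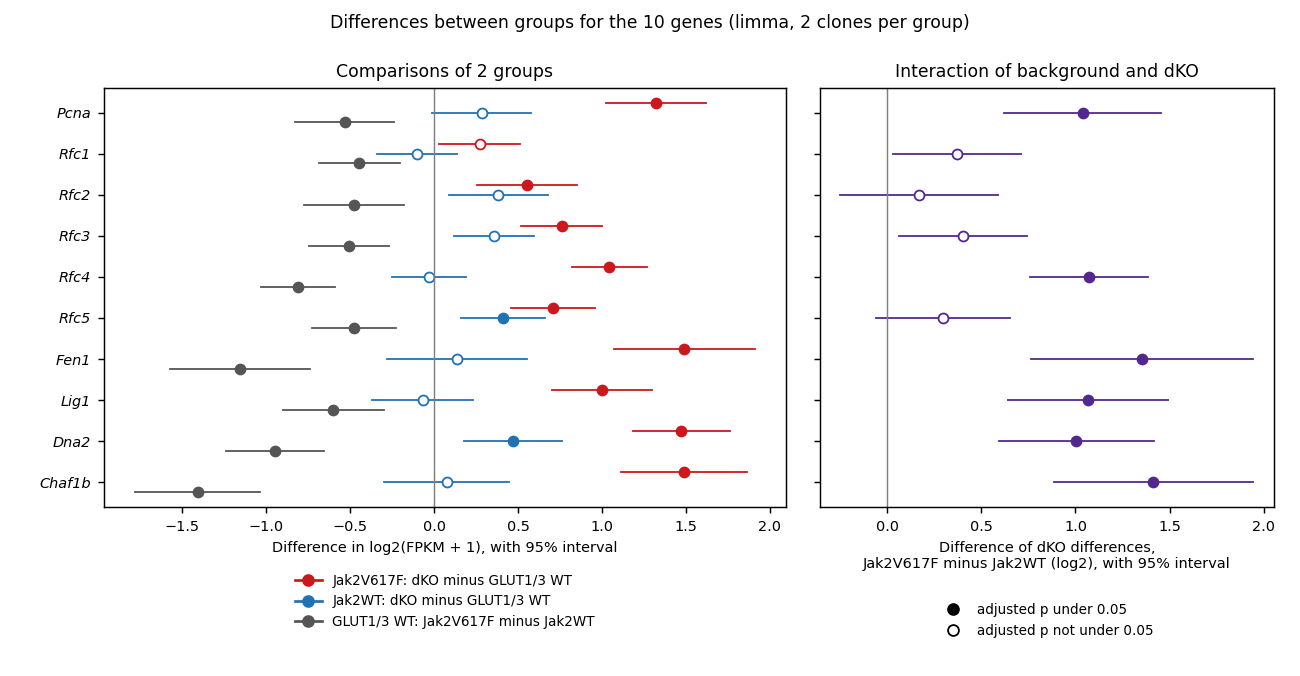
Left, log2 differences of the 10 genes for dKO minus GLUT1/3 WT in each background and for Jak2V617F minus Jak2WT among GLUT1/3 WT clones, with 95% intervals from limma. Right, the interaction, with filled points for adjusted p-values under 0.05: 6 of 10 points are filled, from 1.00 for Dna2 to 1.41 for Chaf1b.

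Among the GLUT1/3 WT clones, Jak2V617F was compared with Jak2WT. All 10 genes were lower in Jak2V617F, beside 14.9% of all genes (15.3% higher), and the median log2 difference was -0.57, beside 0.01 for all genes. Chaf1b was 0.306 times as high (log2 difference -1.41, limma adjusted p = 0.00147), Fen1 0.378 times (-1.15, limma adjusted p = 0.00408) and Dna2 0.470 times (-0.95, limma adjusted p = 0.00229). Rfc4 followed at -0.81, and the other 6 lay between -0.60 for Lig1 and -0.45 for Rfc1. In 10 of 10 genes the clones of the groups did not overlap, which held for 33.6% of all genes in this direction. The count fell to 5 without Jak2WT GLUT1/3 WT clone 1, to 4 without Jak2WT GLUT1/3 WT clone 3 and to 5 without Jak2V617F GLUT1/3 WT clone 3. Rfc4, Fen1, Dna2 and Chaf1b were called in every one of these fits. Scaling libraries to the same summed FPKM moved the median of all genes here to -0.12 and that of the 10 to -0.72, and in the interaction to 0.12 and 1.20. The comparison shares the Jak2V617F GLUT1/3 WT clones with that of dKO in Jak2V617F, so clones that are low in it are low in both.

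Among the dKO clones the backgrounds were close. Pcna (log2 difference 0.51, limma adjusted p = 0.0342, 1.42 times) and Lig1 (0.47, limma adjusted p = 0.0462, 1.38 times) were higher in Jak2V617F, beside 7.12% of all genes (9.96% lower). The median of the 10 was 0.03, beside -0.02 for all genes, and leaving out single libraries moved it from -0.07 without Jak2WT dKO clone 1 to 0.13 without Jak2WT dKO clone 3. The remaining 8 values ran from -0.31 for Rfc2 (95% interval -0.60 to -0.01) to 0.26 for Rfc4 (0.04 to 0.49), and that of Chaf1b was 0.00 (-0.37 to 0.38). Both calls were lost when either Jak2WT GLUT1/3 WT clone, Jak2WT dKO clone 1 or either Jak2V617F dKO clone was left out, and the call of Lig1 also without either Jak2V617F GLUT1/3 WT clone. With the clone number as a replicate block, the limma adjusted p-values were 0.0541 for Pcna and 0.0615 for Lig1. Rfc4 was called higher in Jak2V617F with libraries scaled to the same summed FPKM (0.30, limma adjusted p = 0.0324) and with voom (0.32, adjusted p = 0.0322).

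Alternative loaders share the small subunits of replication factor C and replace Rfc1. In log2 differences, Chtf18, the large subunit of the cohesion loader, was higher in Jak2V617F dKO by 1.09, Dscc1 of the same complex by 0.80, and Atad5, which unloads PCNA, by 1.13, while Rad17, which loads the checkpoint clamp, had a value of -0.23 (limma adjusted p = 0.201). These were 3 of 4 tested genes, and Chtf8 lay below 1 FPKM. Without Jak2V617F dKO clone 3, 3 were called higher and 1 lower. Atad5 stood at 6.70 and 6.53 FPKM in Jak2V617F GLUT1/3 WT and at 14.3 and 17.0 in Jak2V617F dKO. In Jak2WT limma called 0 of the 4, with a median of 0.00, 0 at an unadjusted p under 0.05 and 0 by voom on the recovered reads. The checkpoint clamp itself (Rad9a, Rad9b, Rad1 and Hus1) is a ring of related shape that signals DNA damage. Within Jak2V617F limma called 0 of its 4 genes, 0 at an unadjusted p under 0.05, and voom called 1, higher, with a limma median of 0.05. In Jak2WT 1 of the 4 was called, Hus1 at 0.31, and 0 when any Jak2WT library was left out.

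The partners of the members on the lagging strand were mostly called as well. Of 15 tested genes for polymerase delta, replication protein A, ribonuclease H and nick repair, 11 were higher in Jak2V617F dKO than in Jak2V617F GLUT1/3 WT and Pold4 was lower, with a median log2 difference of 0.39. Leaving out single libraries gave 7 to 9 higher genes, with 7 without either Jak2WT GLUT1/3 WT clone, Jak2V617F GLUT1/3 WT clone 3 or Jak2V617F dKO clone 1, and the clone number as a replicate block gave 8. Of these fits, the one without Jak2V617F GLUT1/3 WT clone 3 alone called a lower gene of the list. Rpa2, a subunit of the single strand binding protein, was highest of these at 1.56, and Pold1, the catalytic subunit of polymerase delta, reached 1.23. Lig3, the ligase of the repair and mitochondrial pathways, had a value of -0.21 (limma adjusted p = 0.110), beside 1.00 for Lig1. Parp1, also of nick repair, stood at 38.2 and 33.1 FPKM in Jak2V617F GLUT1/3 WT and at 45.9 and 48.3 in Jak2V617F dKO. In the same order, Xrcc1 of nick repair stood at 5.48 and 5.52 and at 6.71 and 6.79 FPKM. Rnaseh2c, of ribonuclease H, stood at 17.3 and 15.4 and at 14.3 and 16.1 FPKM. Pold4, a small accessory subunit of polymerase delta, was the only one of the 15 called lower: it stood at 23.7 and 17.0 FPKM in Jak2V617F GLUT1/3 WT and at 13.6 and 14.7 in Jak2V617F dKO (log2 difference -0.48, limma adjusted p = 0.0399). Within Jak2WT 1 of the 15 was higher (Rnaseh2b, 0.35) and 1 lower (Rpa3, -0.37), and 0 were called when any Jak2WT library was left out.

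Of 8 histone chaperone genes, 6 were higher in Jak2V617F dKO (Chaf1a, Rbbp4, Asf1b, Nasp, Mms22l and Tonsl, with a median log2 difference of 0.62 for the list). In Jak2WT dKO limma called 0 of them, 1 at an unadjusted p under 0.05, and voom 1, lower. Chaf1a, the large subunit of chromatin assembly factor 1, had a value of 0.93, and Rbbp4, the subunit it shares with other chromatin complexes, 0.42. Asf1a, a chaperone that also acts outside S phase, had a value of 0.10 (limma adjusted p = 0.503), beside 1.03 for its S phase relative Asf1b.

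Among 22 partners and modifiers of PCNA, 11 were higher and 4 lower in Jak2V617F dKO. Uhrf1, which guides maintenance methylation of DNA, had a log2 difference of 1.82, Dnmt1, the maintenance methyltransferase, 1.19, Ung, a uracil glycosylase, 1.13, and Pclaf, a PCNA binding factor, 1.01. Dtl and Cdt1, the receptor and a substrate of the ubiquitin ligase that acts on chromatin-bound PCNA, had 0.97 and 0.73. The lower ones were Ube2a (-0.53) and Ube2b (-0.67), the conjugating enzymes of PCNA ubiquitination, Hltf (-0.45), a ligase of the same pathway, and Poli (-0.49), a translesion polymerase, and 2 lower genes were called without Jak2V617F GLUT1/3 WT clone 3 or Jak2V617F dKO clone 1. Cdkn1a, the inhibitor p21 that binds PCNA, lay between 50.7 and 66.9 FPKM in all 8 libraries, with a value of 0.02 within Jak2V617F (limma adjusted p = 0.894). In Jak2WT dKO 1 gene of the 22 was called, Poli, at -0.32. Limma gave 7 (3 higher and 4 lower) at an unadjusted p under 0.05, voom called 4, all lower, and limma called 0 when any Jak2WT library was left out.

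**Figure D4:**
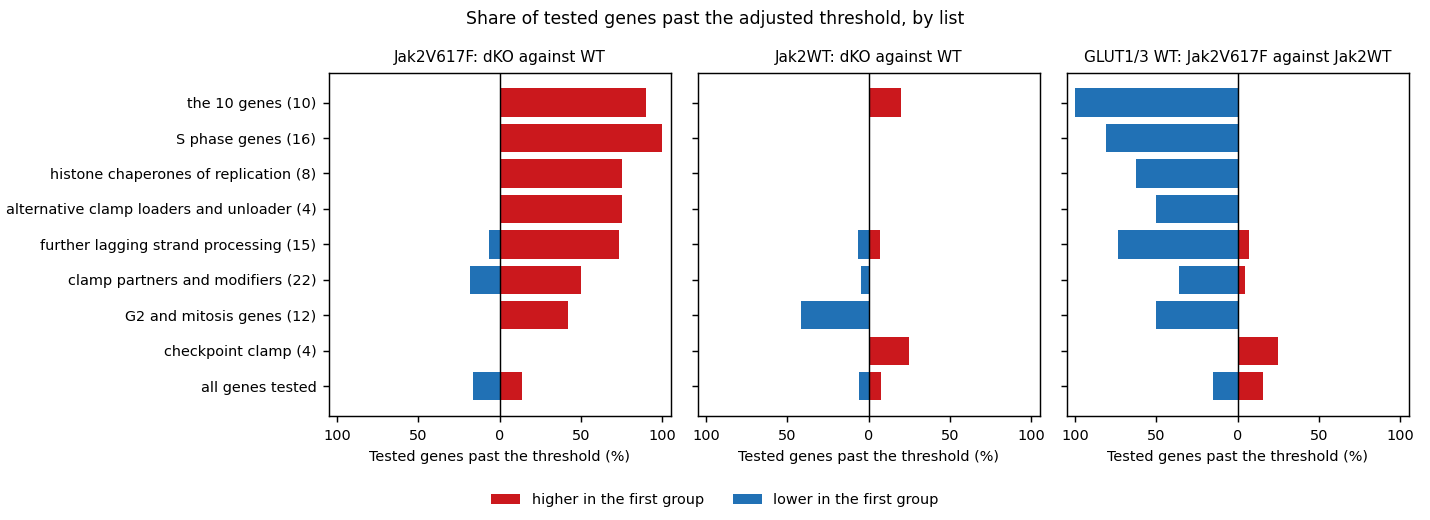
Share of tested genes past the adjusted threshold (horizontal axis, percent, higher to the right and lower to the left) for the 10 genes, for 7 gene lists and for all genes tested, in 3 comparisons, with the number of genes tested in parentheses. Among the lists shown for Jak2V617F dKO against WT, the 10 genes and the S phase list have the largest shares, at 9 of 10 and 16 of 16, while the checkpoint clamp has 0 of 4.

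The wider programme was given by 2 lists. Of 16 S phase genes outside the members, 16 were higher in Jak2V617F dKO than in Jak2V617F GLUT1/3 WT (median log2 difference 1.10, the largest Cdc6 at 2.17), with 13 to 16 when single libraries were left out. In Jak2WT dKO limma called 0 (median 0.04), 2 at an unadjusted p under 0.05, and voom 3. Among GLUT1/3 WT clones 13 were lower in Jak2V617F than in Jak2WT (median -0.84). E2f1 of this list, at 1.07 within Jak2V617F, was picked by the study from these libraries and then reported as higher by RT-qPCR. Their summed level was 627 to 672 FPKM in Jak2WT GLUT1/3 WT, 642 to 725 in Jak2WT dKO, 319 to 380 in Jak2V617F GLUT1/3 WT and 761 to 792 in Jak2V617F dKO. Of 12 genes of G2 and mitosis, 5 were higher in Jak2V617F dKO (Mki67, Top2a, Cdk1, Birc5 and Tpx2, with a list median of 0.11) and 5 were lower in Jak2WT dKO (Mki67, Bub1, Aurka, Plk1 and Cdc20, with a list median of -0.39). Among GLUT1/3 WT clones 6 of the 12 were lower in Jak2V617F than in Jak2WT and 0 higher (median -0.47). At an unadjusted p under 0.05 limma gave 12 lower and 0 higher, as did voom, and single libraries left out gave from 4 lower without Jak2WT GLUT1/3 WT clone 3 to 10 without either Jak2V617F dKO clone. Within the backgrounds, the former count fell to 1 without Jak2V617F GLUT1/3 WT clone 1 and to 3 without clone 3 of the same group or of Jak2V617F dKO, with 1 gene called lower in the last case. The latter fell to 0 without either Jak2WT GLUT1/3 WT clone or Jak2WT dKO clone 1 and to 3 without Jak2WT dKO clone 3. Their sums were 761 to 783, 554 to 628, 501 to 509 and 558 to 673 FPKM in the same order of groups. The sum of the S phase genes was lowest in Jak2V617F GLUT1/3 WT, as were all 10 members, and highest in Jak2V617F dKO, as were Pcna, Rfc4, Fen1, Lig1, Dna2 and Chaf1b by their group means, with clones of Dna2 and Chaf1b that overlapped those of Jak2WT dKO. The means of Rfc2, Rfc3 and Rfc5 were highest in Jak2WT dKO and that of Rfc1 in Jak2WT GLUT1/3 WT. The part of the cell cycle in the levels of the members was not tested. In bulk RNA, a smaller share of cells in S phase and less of these transcripts per cell cannot be told apart.

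Markers of cell types also differed between the groups. The 14 erythroid genes of the table summed to 98.5 to 116 FPKM in Jak2WT GLUT1/3 WT, 252 to 297 in Jak2WT dKO, 561 to 923 in Jak2V617F GLUT1/3 WT and 2634 to 4811 in Jak2V617F dKO, in the last group mainly from the globin genes Hbb-bs and Hba-a1, while the late markers Alas2 and Slc4a1 stayed below 1 FPKM. Of 11 erythroid genes tested within Jak2V617F, 8 were higher in dKO and 1 lower, with 5 higher without Jak2V617F dKO clone 1 and 0 lower without Jak2V617F GLUT1/3 WT clone 1 or Jak2V617F dKO clone 3. The lower gene was Gata1, an erythroid transcription factor, at 58.1 and 48.7 FPKM in Jak2V617F GLUT1/3 WT and 41.1 and 34.0 in Jak2V617F dKO (limma adjusted p = 0.0246), and Epb42, a membrane skeleton gene, had a log2 difference of -0.23 (limma adjusted p = 0.119). The order of the sums, with Jak2V617F GLUT1/3 WT above both Jak2WT groups, was not that of the members. The 12 myeloid progenitor genes summed to 219 to 248 FPKM in Jak2WT GLUT1/3 WT, 160 to 197 in Jak2WT dKO, 197 to 202 in Jak2V617F GLUT1/3 WT and 89.6 to 92.2 in Jak2V617F dKO, with Csf2rb, a shared cytokine receptor subunit, as the largest part. Cebpa and Kit of this list were at 0 in all 8 libraries, while 5 of the 12 genes reached 1 FPKM in both clones of every group. The 7 mast cell and basophil genes summed to 122 to 222 FPKM, nearly all from Gata2 and Cpa3, with Prss34 at 0. Cpa3, a mast cell protease gene, lay between 50.8 and 100.5 FPKM in the 4 Jak2WT libraries and between 0 and 1.67 in the 4 Jak2V617F libraries, and was called lower in Jak2V617F among GLUT1/3 WT clones and among dKO clones (limma adjusted p = 0.000438 and 0.000612). The 6 lymphoid genes stayed below 1 FPKM in sum, with Cd4, Cd8a and Ms4a1 at 0. The part of these shifts in the levels of the members was not tested.

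Across the 8 libraries the members were alike in pattern to unequal degrees. Of 45 pairs, 20 had a Pearson r of at least 0.9 on the log2 scale, the highest was 0.981 for Fen1 and Rfc4, the median 0.884 and the lowest 0.535 for Rfc1 and Pcna. The points are 2 clones of each of 4 groups, so these values mostly restate the differences between groups. Genes outside the members with the most similar pattern to their mean profile, by Pearson r over the same 8 libraries, were Pold1, Exo1 and Timeless (0.991 each), Mcm4 (0.989), Cdc45 and Rfwd3 (0.988 each), Dtl, Fam111a and Cdca5 (0.987 each) and Pola2 (0.986).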

How the data were processed

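The 8 libraries are bulk poly(A) RNA sequencing of 32D clones, grouped by the genotype and clone given in the labels. The authors trimmed reads with fastp 1.0.1, aligned them to mm39 with HISAT2 2.2.1, counted them per gene with featureCounts 2.0.6 and deposited FPKM values. The annotation version, the strand setting and the total behind the FPKM were not given in the sources used here, and 0 columns of values were left out. FPKM times gene length was a whole multiple of 1 step in 100% of values (tolerance 0.01 of the step), which gave back the reads per gene used for depths and for voom.

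Genes with at least 1 FPKM in at least 2 of 8 libraries were tested with limma 3.58.1 (R 4.3.3) on log2(FPKM + 1), a pseudocount of 1, with 1 mean per group, the intensity trend in the empirical Bayes step and Benjamini-Hochberg adjustment over all 11818 genes (4 residual and 3.34 prior degrees of freedom). A limma fit was used since FPKM are not counts. Intervals are 95%. The fit was tested on simulated data first. Clones of a group are the replicates, and p-values measure the spread between them. Every member had at least 167 reads in each library. Alternatives were no trend, no filter, filtering by the mean level, 0.1 as the pseudocount, libraries scaled to the same sum or by the median ratio, voom, only the groups compared, the clone number as a replicate block, each library left out and, added after its level was seen, Pcna-ps2 reads added to Pcna. Named genes are the members, Slc2a1 and Slc2a3, list genes past the threshold or at 0, genes that overlap or copy a member, and the 10 genes whose log2 profile over the 8 libraries correlates best with the mean scaled profile of the members. Of list genes, Rad17, Lig3, Parp1, Xrcc1, Rnaseh2c, Asf1a, Cdkn1a, Chtf8, Rad9a, Rad9b, Rad1, Hus1, Gata2, Epb42 and the late erythroid markers, where not past it, were named outside this rule after their values were seen. Members and lists were chosen with earlier results of these data known. A further transgene shared by all groups and 1 promoter are not reported here. Promoters were RefSeq of GRCm38.p6, and Pcna-ps2 was aligned to Pcna in GRCm39 transcripts with Biopython 1.88. Figures were drawn with matplotlib 3.10.9 in Python 3.11.15.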

Additional observations from a re-analysis of the deposited data

Results flagged for a closer look

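For 6 of the 10 genes the loss of GLUT1/3 differed between the backgrounds by the interaction test in limma over all 8 libraries. The dKO minus GLUT1/3 WT difference in Jak2V617F exceeded that in Jak2WT by 1.41 on the log2 scale for Chaf1b (1.49 against 0.08, adjusted p = 0.0165), by 1.35 for Fen1 (1.49 against 0.14, adjusted p = 0.0223) and by 1.07 for Rfc4 (1.04 against -0.03, adjusted p = 0.00993). It exceeded it by 1.07 for Lig1 (1.00 against -0.07, adjusted p = 0.0181), by 1.04 for Pcna (1.32 against 0.28, adjusted p = 0.0184) and by 1.00 for Dna2 (1.47 against 0.47, adjusted p = 0.0186). Of all genes tested, 4.72% were called in this direction. In all 6 genes the Jak2V617F GLUT1/3 WT clones were the lowest of the 8 libraries, so the same clones enter each of these values, and all 6 calls were lost without Jak2WT GLUT1/3 WT clone 1 or 3 or Jak2WT dKO clone 1.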

How the results depend on the processing

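Of 845 alternative values for the 10 genes in 5 comparisons, 733 kept direction and side of the threshold, 88 fell below it, 12 passed it and 12 turned sign, all of the last from values that were not called. Among GLUT1/3 WT clones and within Jak2V617F, 8 to 10 members were called under each alternative that kept all 8 libraries. Within Jak2WT the 2 calls became 1 with a pseudocount of 0.1 and 0 with no filter, no trend, the same summed FPKM or the replicate block. Among dKO clones the 2 calls became 0 with no filter, with only the groups compared or with the replicate block, and 1 with no trend. In the interaction the 6 became 1 with no filter. Counts over all genes moved from 3533 to 1617 within Jak2V617F and from 2019 to 1028 among dKO clones with only the groups compared. They moved from 1617 to 714 within Jak2WT and from 1256 to 346 in the interaction with no filter, and to 2615 and 1908 with voom. Chaf1b within Jak2WT was -0.013 instead of 0.08 with the same summed FPKM. Leaving out 1 library gave 2131 to 2985 calls over all genes within Jak2V617F, 110 to 1974 within Jak2WT, 1583 to 3969 among GLUT1/3 WT clones, 620 to 1992 among dKO clones and 5 to 1256 in the interaction. Members called were 8 to 9, 0 to 3, 4 to 10, 0 to 2 and 0 to 7 in the same order. Values that turned sign ran within Jak2WT from -0.084 to 0.024 for Rfc4, -0.076 to 0.35 for Fen1, -0.24 to 0.11 for Lig1 and -0.026 to 0.18 for Chaf1b. Among dKO clones they ran from -0.17 to 0.022 for Rfc1, -0.23 to 0.023 for Rfc3, -0.056 to 0.17 for Dna2 and -0.087 to 0.096 for Chaf1b. Where 1 clone of a group was left, it was assumed to vary like the other groups. With the same summed FPKM the share of higher genes among those called went from 45.7% to 60.2% within Jak2V617F, 55.7% to 33.9% within Jak2WT, 50.7% to 29.4% among GLUT1/3 WT clones and 44.4% to 75.0% in the interaction. With voom it went to 59.3%, 38.9%, 34.4% and 69.9%. The cause was not tested in any of these. The interaction needs all groups, so a fit of only the groups compared gives it no other value.

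The clone numbers were taken as names: same-numbered clones of different groups had correlations of their deviations from -0.25 to 0.15. With them as a replicate block, the counts over all genes were 3226 within Jak2V617F, 1323 within Jak2WT, 3355 among GLUT1/3 WT clones, 1769 among dKO clones and 956 in the interaction, and no member call changed beyond the 4 named above.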
